A study of Mus musculus with 6 samples.

Results

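The genes described are enzymes of heme synthesis, Alas1, Alas2, Alad, Uros, Urod, Cpox, Ppox and Fech, together with Hmox1, the heme oxygenase that breaks heme down. They were taken as every probe set, a group of oligonucleotides against a transcript, whose only gene symbol was a name on this list. All 9 genes were measured, by 20 of the 34945 probe sets with a single symbol, which cover 18193 genes. Livers came from 3 wild-type (Dnajb4+/+) and 3 HLJ1-knockout (Dnajb4-/-) mice, all labelled as male C57BL/6 aged 6 to 8 weeks, with no drug or carcinogen given. HLJ1, the protein that Dnajb4 encodes, is a DnaJ-type heat shock protein, and the knockout was made by gene targeting in embryonic stem cells, so it was not limited to a liver cell type. Total RNA of each liver was read on an Affymetrix mouse expression array, and the labels call the arrays biological replicates from independent mice. The p-values below measure the spread between these arrays alone.

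Heme is the iron porphyrin held by hemoglobin, cytochromes and many oxidases. Its synthesis starts and ends in the mitochondrion, with middle steps in the cytosol, and the first enzyme, aminolevulinate synthase, limits the rate. Alas1 encodes the form of this enzyme found in all tissues, which in liver is held down by heme itself, and Alas2 encodes the form of red cell precursors. In hepatocytes a large part of the heme goes to cytochrome P450 enzymes, while Hmox1 is high in macrophages that clear old red cells and is induced by oxidative stress.

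The bases before the start sites of Alas1 and Alas2 are shown because these genes encode enzymes of the same step and their signals differed in how they changed. Sequences are from RefSeq (mouse build GRCm38.p6), 5′ to 3′ on the strand of the gene, and capitals mark matches to the motifs named below. The Alas1 stretch is chr9:106247955-106248204 on the minus strand, directly upstream of the start of its longer transcript. The short Alas1 stretch is chr9:106247907-106247936, inside the first exon of that transcript and upstream of a second start site. The Alas2 stretch is chrX:150547167-150547416 on the plus strand.
Alas1 upstream: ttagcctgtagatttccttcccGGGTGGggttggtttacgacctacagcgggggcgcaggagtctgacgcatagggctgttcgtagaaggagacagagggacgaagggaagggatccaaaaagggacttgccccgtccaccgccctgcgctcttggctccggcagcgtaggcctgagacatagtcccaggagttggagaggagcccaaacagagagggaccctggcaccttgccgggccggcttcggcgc
Alas1 near the second start: ccgcacccaagGCGCATGCGCggcggtcac
Alas2 upstream: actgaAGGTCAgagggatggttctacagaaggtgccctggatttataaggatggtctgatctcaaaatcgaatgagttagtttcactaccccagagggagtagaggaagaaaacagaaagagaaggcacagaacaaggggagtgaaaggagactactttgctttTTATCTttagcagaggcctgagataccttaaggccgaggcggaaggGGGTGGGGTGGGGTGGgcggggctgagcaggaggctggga
The motifs were searched on both strands. In Alas1 the capitals are a CACCC box (CCACCC, here as its reverse complement) beginning 228 bases before the start, and, 195 bases before the second start, overlapping matches on both strands to GCGCATGC, the core bound by nuclear respiratory factor 1. In Alas2 they are the nuclear receptor half-site AGGTCA, a site for GATA factors (AGATAA, as its reverse complement) 86 bases before the start, and 3 CACCC boxes, each sharing a base with the next. Of 32851 promoter windows, 28.1% held a CACCC box in the 250 bases before the start, 2.26% the GCGCATGC core, 9.99% the GATA site and 14% the half-site. The clock-related E-box CACGTG, found in 6.02% of windows, had a match before a start of Alad, Uros and Urod. The antioxidant response element TGACNNNGC (10.2% of windows), the cyclic AMP element TGACGTCA (1.55%) and the D-box TTATGNAA (3.07%) had no match in the 10 windows held here for 7 of the 9 genes. A match is a run of letters in the reference and was not tested as a binding site.

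Dnajb4, the targeted gene, was measured by 3 probe sets, of which the brightest read 588, 566 and 612 in Dnajb4+/+ and 467, 480 and 453 in Dnajb4-/- livers (log2 difference -0.34, limma adjusted p = 0.00768 over the probe set table). Averaged over the probe sets it differed by -0.14 (adjusted p = 0.145 over all genes), and the place of each probe set relative to the targeted stretch was not analysed here. In what follows a gene is called, or rose or fell, where its adjusted p from limma over all genes was under 0.05. Several other measures moved with genotype. Xist, which is transcribed in female cells, had means of 385 ± 19.4 and 16.2 ± 1.58 (SD, n = 3) in the wild-type and knockout arrays, although all were labelled male. Y-linked genes did not pass, Kdm5d with means of 25.5 and 25.8, Eif2s3y with 68.7 and 79.5 and Uty with 20.2 and 24.3 (adjusted p = 0.826, 0.0655 and 0.0507 from limma; all named after their values were seen). Eif2s3y lay above the median intensity of an array (31.8 to 32.5) and Kdm5d and Uty below it, and detection calls were not used. The sex of the animals, and whether RNA of several was pooled, was not settled by these values. All 13 measured female-high liver genes fell, with summed intensities of 9900 to 10320 and 456 to 467, and 7 of 9 male-high genes rose. Of 10 skeletal muscle markers 9 fell, with sums of 775 to 837 and 382 to 396. Of all genes, 5.09% were called higher and 9.57% lower. The 3′ to 5′ signal ratio of the Gapdh control was 1.16 to 1.19 in Dnajb4+/+ and 1.43 to 1.48 in Dnajb4-/- arrays, and that of Actb was 2.59 to 2.68 and 3.10 to 3.22 (exact permutation p = 0.1 for each, two-sided). Xist, the female-high, male-high and muscle sums and the 3′ to 5′ ratios each split the arrays as genotype does. Their part in the differences of the heme genes thus cannot be told apart from that of genotype.

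Among the heme genes, Alas1 fell in Dnajb4-/- livers, to 61.0% of its wild-type level, and the other 8 genes did not pass the test. The share called was thus 1 of 9 genes (11.1%), beside 14.7% of all genes, of which 5.09% were called higher and 9.57% lower. The median log2 difference (Dnajb4-/- minus Dnajb4+/+, the direction used throughout) was -0.025 over the 9 genes and 0.0075 over all genes. Over the alternatives the former lay between -0.086 (without probe sets of several transcripts) and 0.0067 (arrays centred on their brighter probe sets), and it was -0.064 without Dnajb4-/- replicate 3. The central 90% of all genes lay between -0.28 and 0.22, and of the heme genes Alas1 lay outside this range. Values of the genotypes did not overlap for 4 of the 9 genes, Alas1, Alad and Cpox (lower) and Uros (higher), beside 35.5% of all genes. No heme gene differed by 2-fold.

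**Figure D1:**
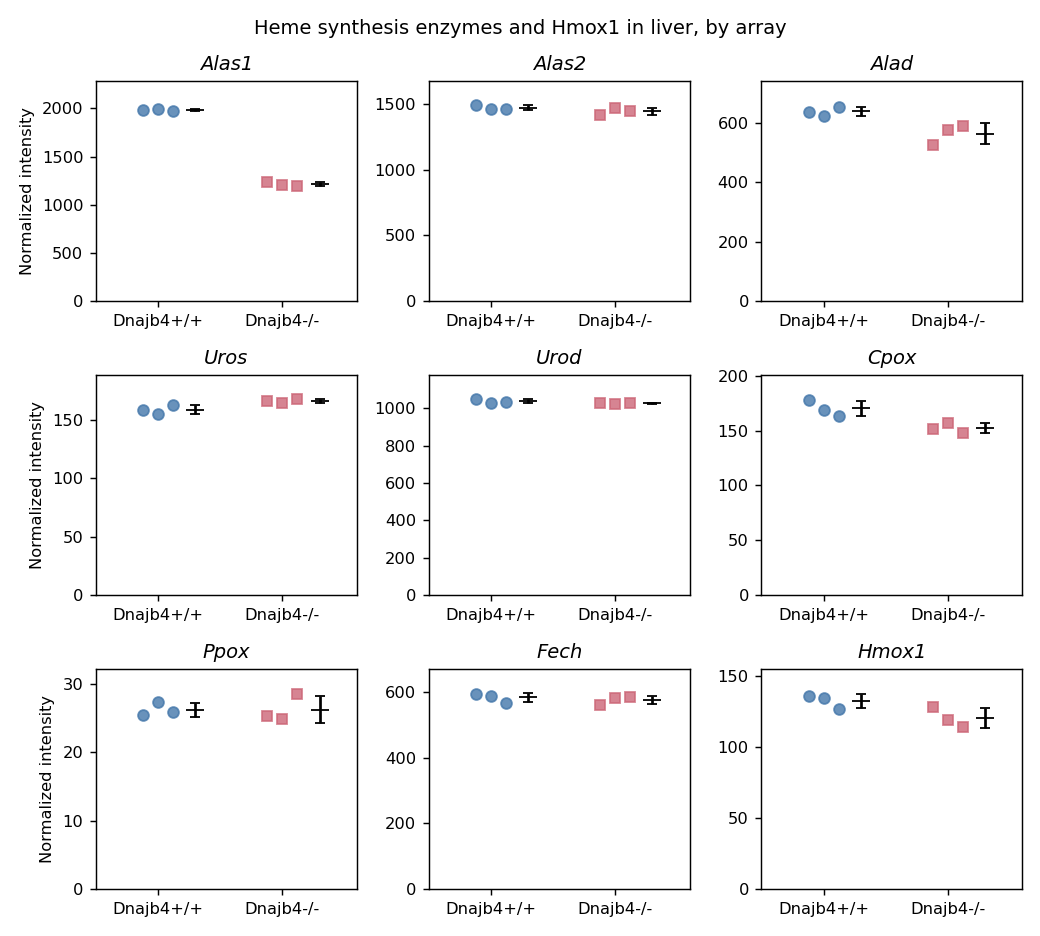
Normalized intensity (linear scale from 0, mean over the probe sets of a gene) of each heme gene in the 3 Dnajb4+/+ and 3 Dnajb4-/- livers, a point per array, and black bars for mean and SD per genotype (n = 3). Alas1 lies at 1975 to 1999 in Dnajb4+/+ and at 1195 to 1236 in Dnajb4-/- arrays, while Alas2, Urod, Ppox, Fech and Hmox1 overlap between the genotypes.

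Alas1, the gene of the rate-limiting enzyme in liver, had intensities of 1987, 1999 and 1975 in the Dnajb4+/+ arrays and 1236, 1205 and 1195 in the Dnajb4-/- arrays. Every Dnajb4-/- array was lower than every Dnajb4+/+ array, and the gap was many times the spread within a genotype. The means were 1987 ± 12.2 and 1212 ± 21.3 (SD, n = 3), and the log2 difference was -0.71 (standard error 0.036, 95% interval -0.80 to -0.63, limma adjusted p = 5.24e-05). A log2 difference at least this low was found for 124 of all genes (0.682%). In whole liver, fewer cells of a type and less RNA per cell cannot be told apart.

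The fall of Alas1 was seen in both of its probe sets. The brighter probe set read 4320, 4325 and 4514 in Dnajb4+/+ and 2497, 2455 and 2439 in Dnajb4-/- livers, or -0.83 on the log2 scale (standard error 0.043, limma adjusted p = 1.08e-04 over the probe set table). The second probe set, of a class that may also read related transcripts, had 914, 924 and 864 against 612, 592 and 586, or -0.59 (standard error 0.048, limma adjusted p = 7.29e-04). Neither probe set had overlapping genotypes. With Alas1, 3 of the 20 heme probe sets were called (the third being a dim Alad probe set), beside 13.5% of all probe sets. Under the alternatives tried for the gene, from the normalization to each left-out array, the Alas1 difference lay between -0.83 and -0.68 and passed the test each time.

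The genes whose pattern over the 6 arrays was most like that of Alas1 were Ccl27a, a chemokine, Sult1a1, a phenol sulfotransferase, and Fam13a. After each gene's mean was taken off its log2 values, they differed from Alas1 by a root mean square of 0.016, 0.021 and 0.026. Their log2 differences were -0.72, -0.70 and -0.72. This likeness rests mainly on the size of the genotype difference, as 2 groups of 3 arrays hold little other variation.

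Alas2 catalyses the same step in red cell precursors. Its only probe set read 1490, 1457 and 1461 in Dnajb4+/+ and 1415, 1470 and 1447 in Dnajb4-/- livers. The genotypes overlapped, with means of 1470 ± 18.0 and 1444 ± 27.5 (SD, n = 3) and a log2 difference of -0.025 (95% interval -0.11 to 0.062, adjusted p = 0.696 from limma). The interval leaves out a change as large as that of Alas1. Of 15 measured erythroid markers (21 listed), 1 fell, Klf1, an erythroid transcription factor, from 113 ± 3.28 to 74.0 ± 7.45, and 14 did not pass, so that 6.67% were called beside 14.7% of all genes. Their summed intensity, which the brighter markers weigh on most, was 689 to 718 in Dnajb4+/+ and 605 to 637 in Dnajb4-/- arrays. Of the 15 differences 6 were above 0 and 9 below, with a median of -0.027. The markers ranged from 8.67 (Rhag) to 193 (Car1) as Dnajb4+/+ means, where the lowest value of the whole table was 3.9. The measured hemoglobin genes read 9.0 ± 0.564 and 9.81 ± 0.614 for Hba-a1, 20.5 ± 1.92 and 21.7 ± 2.36 for Hba-a2 and 80.3 ± 2.62 and 75.8 ± 6.85 for Hbb-b2 (SD, n = 3). These 5 genes are named after their values were seen. Hba-a1 and Hba-a2 lay below the median intensity of an array (31.8 to 32.5). The listed Hbb-b1, Hbb-bs and Hbb-bt were not among the measured genes, so these readings do not give the amount of hemoglobin RNA. Intensities of different probe sets share no scale, so these levels were not set against that of Alas2.

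Enzymes of the cytosolic steps include Alad, which joins aminolevulinate into porphobilinogen, Uros, which closes the porphyrin ring, and Urod, which trims its side chains. Alad read 637, 624 and 655 in Dnajb4+/+ and 525, 577 and 590 in Dnajb4-/- livers. The genotypes did not overlap, and the log2 difference of -0.18 (95% interval -0.31 to -0.053) had an adjusted p = 0.0694 from limma. Its 2 probe sets went apart. The bright probe set read 2349 ± 14.6 and 2404 ± 49.9 (SD, n = 3; log2 difference 0.033, adjusted p = 0.657), and the dim probe set fell from 174 ± 8.99 to 133 ± 13.9 (-0.40, adjusted p = 0.0283), where limma adjusted both over all probe sets. The dim probe set read 172, 166 and 184 in Dnajb4+/+ and 117, 140 and 141 in Dnajb4-/- arrays. Its call was lost with the methods' t-test, with a replicate block, and when Dnajb4+/+ replicate 1, 2 or 3 or else replicate 2 of Dnajb4-/- was left out. The mean of Alad over its probe sets thus rests on the dim probe set, and with the bright probe set alone the gene's difference was 0.033.

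Uros had the only positive difference among the heme genes. It read 159, 155 and 163 in Dnajb4+/+ and 167, 165 and 168 in Dnajb4-/- livers, so that every Dnajb4-/- array was higher. The log2 difference was 0.065 (95% interval -0.024 to 0.15, adjusted p = 0.304 from limma). The probe sets gave nearly equal values, 0.067 and 0.064, but in each of them the genotypes overlapped. Urod read 1051, 1027 and 1035 against 1030, 1024 and 1027, and the arrays overlapped. Its log2 difference was -0.015 (95% interval -0.097 to 0.068, adjusted p = 0.819).

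The last steps lie in the mitochondrion, where Cpox and Ppox oxidize the porphyrinogen and Fech inserts the iron. Cpox read 178, 169 and 164 in Dnajb4+/+ and 151, 157 and 148 in Dnajb4-/- livers. The genotypes did not overlap, and the log2 difference of -0.16 (95% interval -0.27 to -0.052) had an adjusted p = 0.0622 from limma. Its 3 probe sets gave log2 differences of 0.020 for the brightest (741 ± 8.67 and 752 ± 17.9), -0.18 for the next (389 ± 6.58 and 342 ± 14.7, adjusted p = 0.0538 over all probe sets) and -0.32 for the dimmest (17.1 ± 1.70 and 13.7 ± 1.36, adjusted p = 0.0727; SD, n = 3 for each). As with Alad, the brightest probe set gave no sign of a lower level.

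Ppox read 25.4, 27.4 and 25.9 in Dnajb4+/+ and 25.3, 24.8 and 28.6 in Dnajb4-/- livers, with overlap and a log2 difference of -0.0015 (95% interval -0.15 to 0.15, adjusted p = 0.991 from limma). Of its 3 probe sets, 2 were dim, with means of 9.79 to 10.9, and the brightest read 181 ± 12.7 and 166 ± 9.83 (SD, n = 3; log2 difference -0.12, adjusted p = 0.298 over all probe sets). Fech was measured by 4 probe sets, 3 of them bright. As a gene it read 596, 587 and 568 against 562, 581 and 587, with a log2 difference of -0.018 (95% interval -0.11 to 0.076, adjusted p = 0.804). The bright Fech probe sets differed by -0.0069, 0.0092 and -0.0036 on the log2 scale, and the dim probe set by -0.072. At the gene level, the 95% intervals of all the heme genes besides Alas1 leave out a change as large as that of Alas1.

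**Figure D2:**
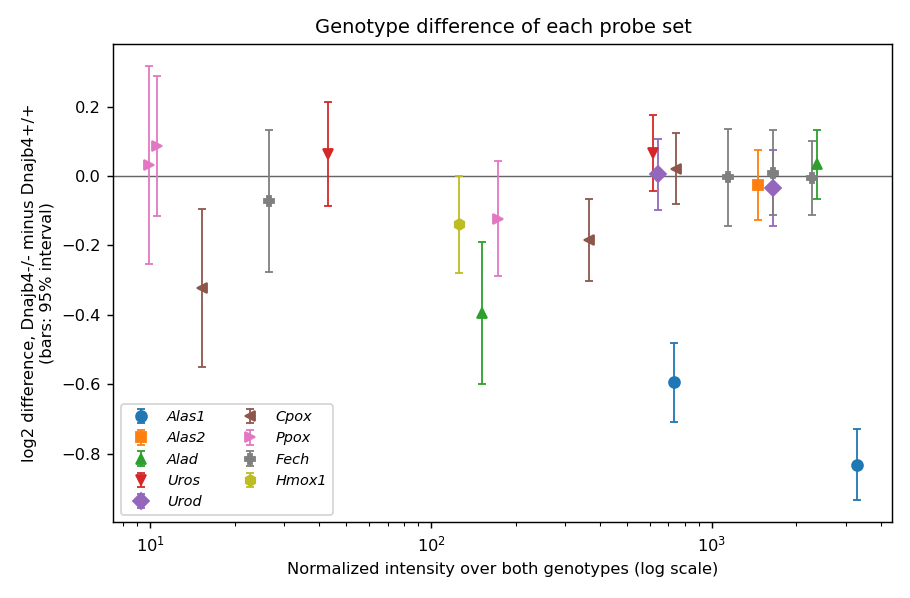
Log2 difference (y axis, Dnajb4-/- minus Dnajb4+/+) of each of the 20 heme probe sets with its 95% interval. The x axis (log scale) is the geometric mean of its Dnajb4+/+ and Dnajb4-/- mean normalized intensities. Both Alas1 probe sets lie lowest at -0.83 and -0.59. The brightest probe sets of Alas2, Alad, Uros, Urod, Cpox and Fech lie near 0. Of the rest, the lowest values belong to Alad (-0.40), Cpox (-0.32, and -0.18 at genotype means of 389 and 342), Hmox1 (-0.14, its only probe set) and Ppox (-0.12, its brightest).

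Hmox1, the inducible enzyme that opens the heme ring to biliverdin, iron and carbon monoxide, had 1 probe set. It read 136, 134 and 127 in Dnajb4+/+ and 128, 119 and 114 in Dnajb4-/- livers. The highest Dnajb4-/- array was above the lowest Dnajb4+/+ array, so the genotypes overlapped. The means were 132 ± 4.8 and 120 ± 6.98 (SD, n = 3). The log2 difference was -0.14 (95% interval -0.27 to -0.0099), with an adjusted p = 0.144 from limma. A difference as low or lower was found for 15.6% of all genes.

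Markers of Kupffer cells and other macrophages, the liver cells in which Hmox1 is high, were lower in the same arrays. Of 15 such markers, 13 fell and 2 did not pass (86.7% called, beside 14.7% of all genes). Their median log2 difference was -0.41, beside 0.0075 over all genes. Their summed intensity was 7867 to 8273 in Dnajb4+/+ and 6029 to 6301 in Dnajb4-/- arrays. Cd163, the receptor through which macrophages take up hemoglobin, fell from 357 ± 9.21 to 208 ± 3.99, and the complement receptor Vsig4 from 973 ± 24.2 to 668 ± 9.24 (SD, n = 3). Clec4f, a defining Kupffer cell lectin chosen after its values were seen, had a log2 difference of -0.29 (limma adjusted p = 0.00328). Divided by the geometric mean of the 15 markers in its array, Hmox1 stood at 93.2% to 104% of the wild-type mean in Dnajb4+/+ and at 112% to 129% in Dnajb4-/- arrays. Hmox1 itself was not among these markers. The ratio restates that Hmox1 differed less than the markers did, and it is not a level per macrophage. The part of the macrophage markers in the Hmox1 values was not tested.

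**Figure D3:**
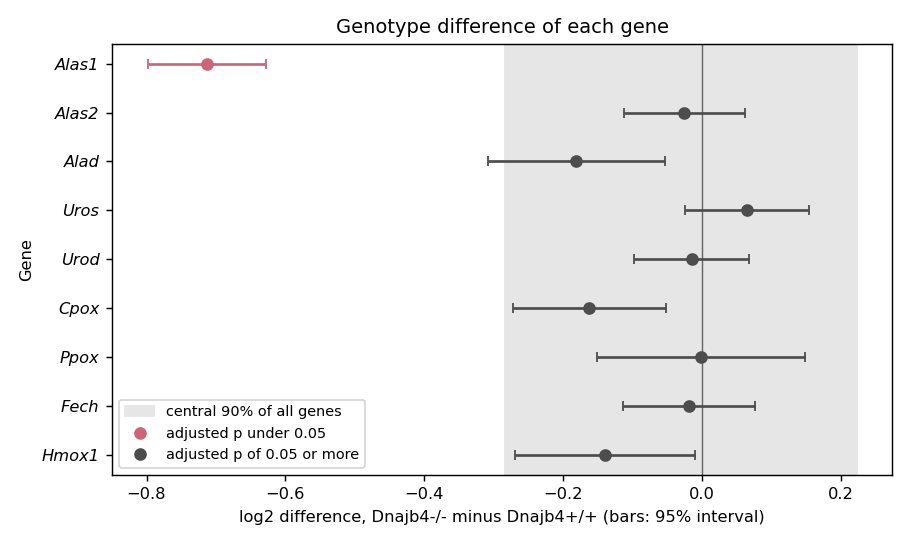
Log2 difference (x axis, Dnajb4-/- minus Dnajb4+/+) of each heme gene with its 95% interval, with the central 90% of all 18193 genes shaded from -0.28 to 0.22. Alas1 at -0.71 lies outside the shaded range, and the other 8 genes lie between -0.18 and 0.065 within it.

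The genes around the chain moved in both directions. Of 16 genes that bind, carry or break down heme, 4 fell, 1 rose and 11 did not pass (31.25% called, beside 14.7% of all genes; median log2 difference -0.080). The constitutive heme oxygenase Hmox2 read 1252 ± 28.2 and 1328 ± 15.05 (SD, n = 3; adjusted p = 0.184 from limma). The biliverdin reductases differed by 0.025 (Blvra, adjusted p = 0.718) and -0.15 (Blvrb, adjusted p = 0.0826). Besides Cd163, lower were Flvcr2, a membrane carrier of the FLVCR family (-0.42), and Tspo, a mitochondrial membrane protein that binds porphyrins (-0.16), while the efflux pump Abcg2, which also exports porphyrins, rose (0.34). Slc46a1, a folate and heme carrier named after its value was seen, was the fourth that fell (-0.14). The calls of Flvcr2 and Abcg2 held under all 16 alternatives, and that of Tspo under 8 and that of Slc46a1 under 5. The latter pair lost their calls without each array in turn and with the replicate block.

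Of 11 measured partners of synthesis, such as carriers of iron and porphyrins, 1 rose, 1 fell and 9 did not pass (18.2% called, near the 14.7% of all genes; median -0.040). Clpx, a mitochondrial unfoldase known to act on aminolevulinate synthase, rose from 325 ± 18.0 to 493 ± 28.2 (SD, n = 3; log2 difference 0.60, limma adjusted p = 0.00114). Slc25a37, the mitochondrial iron importer mitoferrin 1, fell from 252 ± 5.47 to 195 ± 2.85 (-0.37, adjusted p = 0.00119). Each held under all alternatives that could be computed for it.

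Of 16 regulators of Alas1 in liver, 8 fell, 5 rose and 3 did not pass (81.25% called, beside 14.7% of all genes; median -0.13). Ppargc1a, the coactivator that raises Alas1 on fasting, fell from 124 ± 7.0 to 74.0 ± 3.24 (SD, n = 3; -0.74, adjusted p = 3.57e-04 from limma). Nr1i3, the xenobiotic receptor CAR, named here after its values were seen, fell from 806 ± 34.2 to 485 ± 10.3 (-0.73, adjusted p = 1.35e-04). Many of the others are parts of the circadian clock, and the hour at which livers were taken is not given in the sources used here. The clock output factor Dbp fell from 1722 ± 21.6 to 208 ± 8.76 (-3.05). The clock activator Arntl had a difference of 1.24, and between 0.14 and 2.34 under the alternatives. Its call was kept in 15 of 16 alternatives. It was lost (0.14, limma adjusted p = 0.166) once probe sets of several transcripts were left out. Npas2 had 0.81, a call kept in 14 of 15 alternatives and lost by its brightest probe set (0.072). The part of these genes in the Alas1 difference was not tested.

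Of 16 measured regulators of Hmox1 and their shared targets, 6 fell, 1 rose and 9 did not pass (43.75% called, beside 14.7% of all genes; median -0.12). Nfe2l2, which encodes the inducing factor NRF2, fell from 202 ± 11.3 to 164 ± 7.40, and Bach1, the heme-sensing repressor, from 316 ± 8.78 to 274 ± 6.74 (SD, n = 3), with log2 differences of -0.30 and -0.20 (adjusted p = 0.0143 and 0.0192 from limma). The call of Nfe2l2 was kept in 12 and that of Bach1 in 11 of 16 alternatives. Of shared targets, the quinone reductase Nqo1 fell (-0.64) and Gclc, of glutathione synthesis, rose (0.27).

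Of 23 measured enzymes that hold heme or pass electrons to it, 4 fell, 3 rose and 16 did not pass (30.4% called, beside 14.7% of all genes; median 0.019). The bile acid enzyme Cyp7a1 fell from 921 ± 29.2 to 277 ± 12.9 and the CAR target Cyp2b10 from 280 ± 7.60 to 163 ± 2.49, while Cyp8b1, also of bile acid synthesis, rose from 3515 ± 14.6 to 4145 ± 79.3 (SD, n = 3). Cyp4a14 had the largest difference of the list (-4.31) and is also a female-high liver gene. The abundant Cyp2e1 and Cyp3a11, named after their values were seen, did not pass (-0.093 and 0.082).

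**Figure D4:**
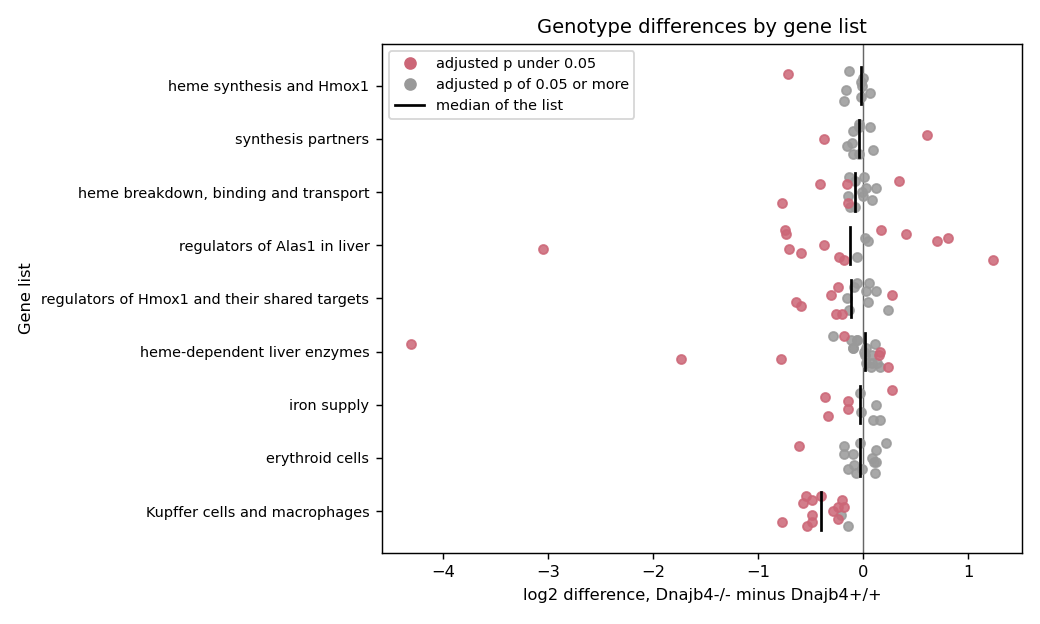
Log2 difference (x axis, Dnajb4-/- minus Dnajb4+/+) of each measured gene of the lists named on the y axis, a point per gene, red where the adjusted p was under 0.05, with the median of a list as a black line. Alas1 is the only red point of the top row, and 13 of 16 regulators of Alas1 are red on both sides of 0, where 14.7% of all genes passed. All 15 macrophage markers lie below 0.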

How the data were processed

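Total RNA of 3 Dnajb4+/+ and 3 Dnajb4-/- livers was hybridised to Affymetrix mouse expression arrays. In GeneSpring the authors applied GCRMA, a background correction by probe GC content with normalization, and global median centring. Their deposited table gives linear intensities, and it was the only file used. Scanner files and detection calls were not used here. Of 45101 probe sets, 64 controls, 932 with several symbols and 9160 without a symbol were left out. Of the 34945 left, 99.42% matched RefSeq genes of GRCm38.p6. A gene was the mean of the log2 values of its probe sets, without a filter on dim genes. The fit used lmFit and eBayes of limma 3.58.1 under R 4.3.3, two-sided, with Benjamini-Hochberg adjustment over all 18193 genes or all probe sets, at 0.05. The procedure was tested on simulated data. Arrays of a genotype correlated across genes at 0.998 to 0.999 (Pearson's r) and arrays of different genotypes at 0.993 to 0.995, and their number limits the precision. The heme genes and all gene lists were chosen with earlier results of these data known. Named are all heme genes and, of each other list, at most 4 called genes that differed most (at most 2 where none was called), and the 3 genes most like Alas1 over the arrays, besides Hmox2, Blvra, Blvrb, Ppargc1a, Nfe2l2, Bach1, Dnajb4 and Xist. Alternatives covered normalization, centring, a signal filter, the gene-level value, an offset of 16, a variance trend, Student's t-test, the replicate number as a block, and the removal of each array. Figures were drawn with matplotlib 3.10.9.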

Additional observations from a re-analysis of the deposited data

How the results depend on the processing

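Alas1 kept its direction and its call under every alternative run. The number of heme genes called, all lower, was 1 with quantile normalization, with centring on brighter probe sets, with the brightest probe set, with linear averages, with the methods' t-test and without each array in turn, and the replicate block also left it at 1. It was 3 among genes above the median signal, 3 with 16 added to each value, 3 with a variance trend and 2 without probe sets of several transcripts, beside 35.7%, 19.8%, 19.5% and 11.6% of all genes tested there, with 8 heme genes tested in the first and last of these settings. The added calls were Alad, at -0.18, -0.16, -0.18 and, on its dim probe set alone, -0.40 in that last setting, and Cpox, at -0.16, -0.10 and -0.16. Both turned with the brightest probe set alone, Alad to 0.033 and Cpox to 0.020, and Alad read 0.0078 with linear averages. The number of heme probe sets called was 3, between 2 and 3 without each array in turn, and 5 with a variance trend. The dim Alad probe set lost its call with the methods' t-test (adjusted p = 0.0996), with the replicate block (0.0532), without Dnajb4+/+ replicate 1, 2 or 3 (0.0777, 0.0540 and 0.0912) and without Dnajb4-/- replicate 2 (0.0540), all by limma but the first. The cause of these changes was not tested.

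Differences near 0 changed sign without passing the test. With arrays centred on brighter probe sets, Alas2 read 0.0067 (as gene and probe set), Urod 0.017, Ppox 0.031 and Fech 0.014. With quantile normalization Urod read 0.0030 and Ppox 0.00054, and without probe sets of several transcripts Urod read 0.0046. Leaving out an array gave Ppox between -0.064 and 0.037 and Fech between -0.038 and 0.00053. The brightest Fech probe set read 0.018 with quantile normalization, 0.025 when centred and between -0.032 and 0.015 without an array. The third Fech probe set read 0.013, 0.029 and between -0.050 and 0.039 in the same settings. Without an array, the second Fech probe set lay between -0.022 and 0.044, the dimmer Urod probe set between -0.011 and 0.019 and the dimmest Ppox probe set between -0.067 and 0.13.

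Over all genes, 1529 to 3602 were called under the alternatives, 1529 of them with the replicate block, beside 2667 as reported. The count was 1552 or 1621 with Dnajb4+/+ replicate 1 or 3 removed and 1692 or 1721 with Dnajb4-/- replicate 1 or 2 removed. Of the lists, calls ranged over the alternatives from 3 to 12 for heme breakdown and transport (5 as reported), 4 to 15 for heme-dependent enzymes (7), 4 to 9 for regulators of Hmox1 (7), 3 to 6 for iron supply (5), 2 to 5 for synthesis partners (2), 1 to 3 for erythroid markers (1), 1 to 4 for endothelial (4), 3 to 7 for hepatocyte (4), 0 to 3 for stellate (0), 0 to 1 for lymphocyte (1) and 0 to 1 for cholangiocyte markers (1). The called cholangiocyte marker, Sox9, kept its call in all 15 alternatives that tested it, and it lay below the median signal. The other lists, with regulators of Alas1 at 10 to 13 and macrophage markers at 10 to 13, stayed within 1.5 times. Same-numbered arrays did not deviate together (r of -0.021, -0.14 and 0.0091), so the numbers were not taken as pairs, and the block changed no call of a heme gene. Of the calls 34.7% were higher, and 50.5% when centred. Signal over background limits the dim Ppox and Cpox probe sets, and with 3 arrays per genotype a permutation test of a single value cannot go below 0.1.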

Other observations

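Genes of iron supply, which Fech draws on, moved in both directions. Of 10 measured, 4 fell, 1 rose and 5 did not pass (50% called, beside 14.7% of all genes; median log2 difference -0.029, beside 0.0075 over all genes). Slc40a1, the iron exporter ferroportin, fell from 1837 ± 18.7 to 1428 ± 5.72, and Ncoa4, the receptor that delivers ferritin for breakdown, from 1016 ± 34.3 to 805 ± 11.7 (SD, n = 3), with log2 differences of -0.36 and -0.34 (adjusted p = 9.30e-04 and 0.00255 from limma). Slc11a2, the iron importer DMT1, rose from 80.2 ± 0.753 to 97.0 ± 4.63 (0.27, adjusted p = 0.00937). Ireb2, the iron sensor IRP2, fell by 0.14 (log2; adjusted p = 0.0388), a call kept in 7 of 16 alternatives. Hamp, the iron hormone hepcidin, was the fourth that fell, also by 0.14 (adjusted p = 0.0356), and is named after its value was seen. Its call was kept in 6 of 16 alternatives, and both Ireb2 and Hamp lost theirs without each array in turn and with the replicate block.

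Markers of hepatocytes, the cells that make most liver heme, showed no common direction. Of 12 measured, 2 rose (Apob, 0.42, and G6pc, 0.32), 2 fell (Tat, -0.42, and Hpd, -0.15) and 8 did not pass, with a median of -0.023 and summed intensities of 153084 to 153568 in Dnajb4+/+ and 149479 to 150918 in Dnajb4-/- arrays. Of 7 endothelial markers 4 fell, among them Stab2 (-0.31) and Lyve1 (-0.30). Of 7 neutrophil markers, Ltf rose (0.52) and S100a8 and S100a9 fell (-0.24 and -0.46). Of 8 lymphocyte markers Nkg7 fell (-0.30). None of 7 stellate cell and fibroblast markers passed by limma (Col3a1 at -0.18 and Pdgfrb at 0.15; 2 at an unadjusted limma p under 0.05, and 0 by the methods' t-test after adjustment), and of 4 cholangiocyte markers Sox9 rose (0.42). The shares called were 33.3% of hepatocyte, 57.1% of endothelial, 42.9% of neutrophil, 12.5% of lymphocyte and 25% of cholangiocyte markers, beside 14.7% of all genes. The call of Hpd was kept in 6 and that of Lyve1 in 10 of 16 alternatives, and those of S100a8 and Nkg7 in 10 and 11 of 15.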
